A study of Mus musculus with 8 samples.

Results

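The tripartite motif (TRIM) family was read out of microarray profiles of mouse macrophages. Members were all genes whose symbol on the array consists of Trim and a number, with or without a letter. By this rule 52 of the 15946 genes with a probe assigned to 1 symbol were TRIM genes, measured by 74 probes, and 16 of them had more than 1 probe. Each gene was read from its brightest probe. The cells were thioglycollate-elicited peritoneal macrophages of C57BL/6 mice that had all received siRNA, and total RNA from each sample was hybridised to 1 Illumina array. The siRNA was a scrambled control (siCtrl), was directed against MLL, a histone H3 lysine 4 methyltransferase (siMLL), or was directed against the ETS-family factor GABP (siGABP). Cells of each kind were left untreated or received Kdo2 lipid A (KLA), a specific TLR4 agonist, for 6 h. Of the 8 arrays, 3 were replicates of siMLL cells without KLA, and each of the other combinations of siRNA and KLA state had 1 array. The labels name neither the MLL gene nor the GABP subunit targeted, give no KLA dose for these arrays, and do not say whether the siMLL triplicate came from separate mice or cultures. The p-values therefore measure the spread between these arrays, which may be technical.

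TRIM proteins carry a RING domain, one or more B-boxes and a coiled coil, and most act as ubiquitin ligases. The C-terminal domain differs between subfamilies and directs the protein to its substrates. Many TRIM genes are induced by interferon, and macrophages stimulated through TLR4 make type I interferon through the adaptor TRIF and the factor IRF3. TRIM proteins act on this pathway at several points, as activators of RNA sensors, as brakes on TLR signalling and as factors that bind viral capsids or antibody-coated virus.

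The arrays carried macrophage RNA throughout. All 5 macrophage markers on the array lay above the intensity filter, with Lyz2 between 23069 and 35651.5 intensity units.  Neither B cell marker passed this filter, 1 of 4 T cell, 1 of 4 mast cell and 1 of 4 neutrophil markers did, and 3 of 4 mesothelial markers did. The 4 mast cell probes summed to 484 to 523 on untreated and 528 to 562 on KLA arrays. Of these only Cma1 passed the filter, at 142.7 to 162.6 untreated and 156.4 to 180.9 with KLA, against a median of 139.5 for all probes. The part of mast cells in any TRIM result was not tested. The other lists overlapped between the states. In RNA from bulk samples, fewer cells of a type and less RNA per cell cannot be told apart. Gabpa was lower in siGABP cells by 1.02 ± 0.09 (SE) on the log2 scale (adjusted p = 0.000211), whereas Gabpb1 was higher by 0.97. The MLL gene Kmt2a was not analysed here. The siMLL untreated replicates correlated at 0.9962 to 0.9975.

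Of the 52 TRIM genes, 31 passed the filter, which kept probes whose mean log2 value over all arrays exceeded the median of all probes (6.73). The other 21 stayed between 78.7 and 219.6 intensity units on every array. Trim21 and Trim69 passed only because the KLA arrays were counted in the mean, and Trim45 and Trim68 would have passed on the untreated arrays alone. The question put to the first comparison was which TRIM genes respond to TLR4 activation. KLA raised a set of TRIM genes linked to antiviral defence, with Trim30d, Trim30a, Trim21, Trim12c and Trim34a at least 2.67-fold higher. It lowered Trim8, by 2.39-fold, and to a lesser degree Trim27, Trim39, Trim41 and Trim59. In the fit of siRNA and KLA over 8 arrays (limma, two-sided, Benjamini-Hochberg adjustment over 8793 genes), 13 of 31 TRIM genes were called at an adjusted p below 0.05, 8 higher and 5 lower. Among all genes tested, 56.8% were called, 20.0% higher and 36.8% lower. At least 2-fold higher were 5 of 31 TRIM genes, against 4.78% of all genes, and at least 2-fold lower was 1 of 31, against 2.68%. The median log2 change was 0.03 for TRIM genes and -0.04 for all genes. Each of the 13 called genes kept its direction under all 3 siRNAs. The calls came from a response averaged over these same arrays, so this agreement was favoured in advance. The KLA and untreated arrays did not overlap for 13 of the 31 genes, 9 higher and 4 lower with KLA, against 47.3% of all genes tested (17.5% higher and 29.8% lower). The 18 genes not called had log2 changes between -0.13 and 0.18 on their brightest probes. Among them, Trim29 changed by -0.11 on its brightest probe. Its second probe, also past the filter, changed by -0.36 (adjusted p = 0.0017 in the limma fit of every probe without a filter).

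**Figure D1:**
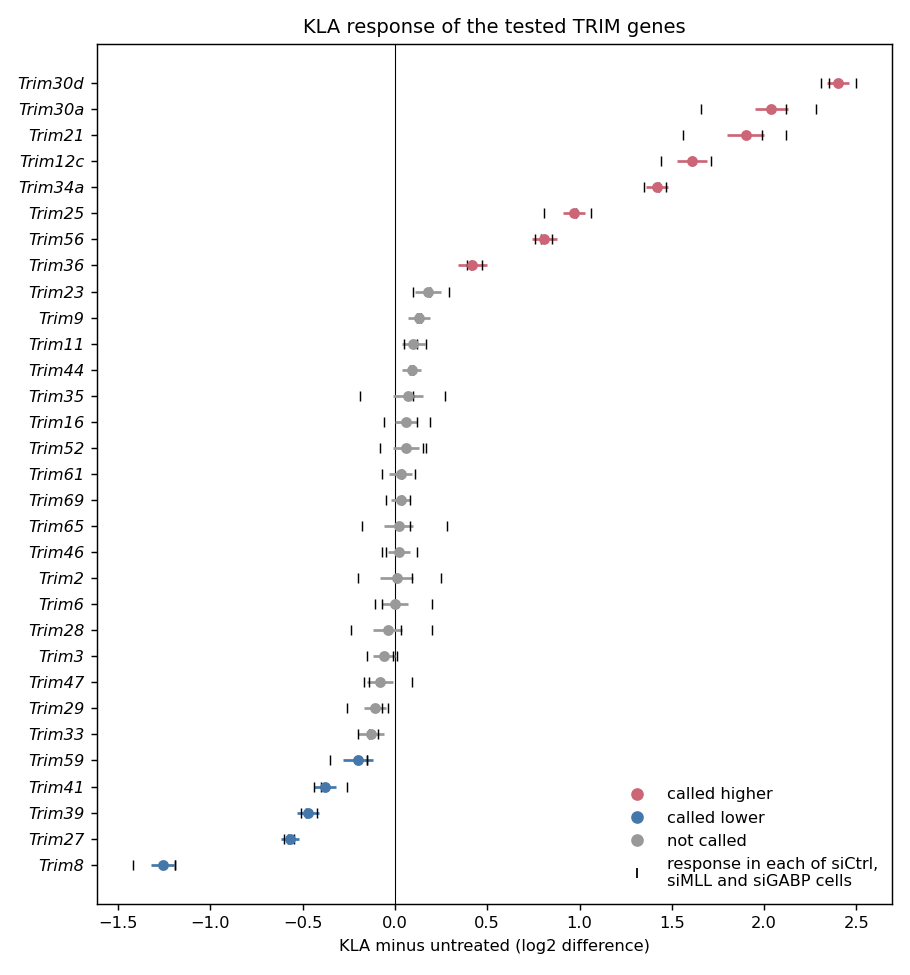
KLA response of the 31 TRIM genes that passed the intensity filter, as the log2 difference between KLA and untreated cells. Points and bars give the estimate and its standard error over 8 arrays, black ticks the response in siCtrl, siMLL and siGABP cells, and Trim30d (2.40) and Trim8 (-1.26) mark the ends.

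The antiviral and interferon-linked list held 9 TRIM genes that passed the filter, of which 7 rose, none fell and 2 were not called. This compares with 20.0% higher and 36.8% lower among all genes tested. The median log2 change of the list was 1.42, against -0.04 for all genes tested. Both the count and the median include Trim21, which passed the filter only through its KLA values. This list, like the others used here, was chosen with earlier results of these data known. Trim30a encodes a protein that in mice restrains TLR signalling by promoting loss of TAB2 and TAB3. Its probe read 1343.4 in siCtrl untreated cells, 1242.9, 1160.0 and 1208.1 in the siMLL untreated replicates and 1788.8 in siGABP untreated cells. After KLA it read 6413.6 with siCtrl, 5125.0 with siMLL and 5569.7 with siGABP. Every KLA array thus lay far above every untreated array, and the highest untreated value was the siGABP one. Trim30a rose 4.1-fold (log2 2.04 ± 0.09 SE, adjusted p = 4.61e-09). Trim30d, a paralogue of Trim30a, read 213.1 with siCtrl, 181.9, 181.4 and 177.9 with siMLL and 208.3 with siGABP in untreated cells. With KLA the values were 949.0, 869.1 and 901.7 in siCtrl, siMLL and siGABP cells. The 3 KLA values were close to each other, and Trim30d had the highest fold change of the family, at 5.29 (log2 2.40 ± 0.06 SE, adjusted p = 2.58e-11).

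Trim21 encodes a cytosolic Fc receptor that marks antibody-bound virus for degradation. Untreated intensities were 140.6 with siCtrl, 147.1, 124.6 and 124.1 with siMLL and 147.6 with siGABP, close to the median of all probes (139.5). After KLA they were 499.8, 424.0 and 370.1 with siCtrl, siMLL and siGABP. Every KLA array of Trim21 lay above every untreated array, a 3.74-fold rise (log2 1.90 ± 0.10 SE, adjusted p = 2.41e-08). Its size depended on the background correction, with log2 changes from 1.63 to 2.34 over the alternatives. It passed the filter through these KLA values and so adds nothing to the share of members called. Trim12c and Trim34a belong, with Trim30a, to the mouse genes related to TRIM5, a capsid-binding restriction factor in primates. Trim12c read 479.6 with siCtrl, 361.6, 430.4 and 350.9 with siMLL and 465.8 with siGABP in untreated cells, and 1400.0, 1168.1 and 1210.4 with KLA in the same order. For Trim34a the untreated values were 366.1 with siCtrl, 323.2, 317.1 and 299.1 with siMLL and 432.2 with siGABP, and the KLA values 954.1, 787.9 and 1047.6. No KLA array of either gene overlapped an untreated one. Trim12c rose 3.05-fold (log2 1.61 ± 0.08 SE) and Trim34a 2.67-fold (log2 1.42 ± 0.06 SE), with adjusted p of 1.47e-08 and 1.79e-09. A second Trim34a probe changed by 1.2 on the log2 scale, while the dimmest stayed between 100.8 and 113.6 on all arrays, as did the other Trim12c probe between 96.3 and 111.7. The Trim30, Trim12 and Trim34 genes are close paralogues, so their probes may share targets, and signal may be divided among them in ways that were not tested here.

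Trim25 ubiquitinates the RNA sensor RIG-I. It read 4042.4 with siCtrl, 3232.0, 3110.3 and 3220.9 with siMLL and 3278.2 with siGABP in untreated cells, and 7065.7, 6625.4 and 6431.6 after KLA. The siCtrl array was the highest in each state, and the states did not overlap. Trim25 rose 1.96-fold (log2 0.97 ± 0.06 SE, adjusted p = 9.06e-08). Trim56, which promotes antiviral signalling, was between 279.5 and 319.9 on untreated arrays and between 480.6 and 516.1 on KLA arrays, a 1.75-fold rise (adjusted p = 7.79e-07). Trim6 and Trim65, both tied to antiviral signalling, were the list's members that were not called. Trim6 read 139.1 to 159.5 in untreated and 139.4 to 155.3 in KLA cells, and Trim65 read 135.9 to 156.0 and 138.1 to 161.7. The states overlapped for both, with log2 changes of 0.00 and 0.02.

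**Figure D2:**
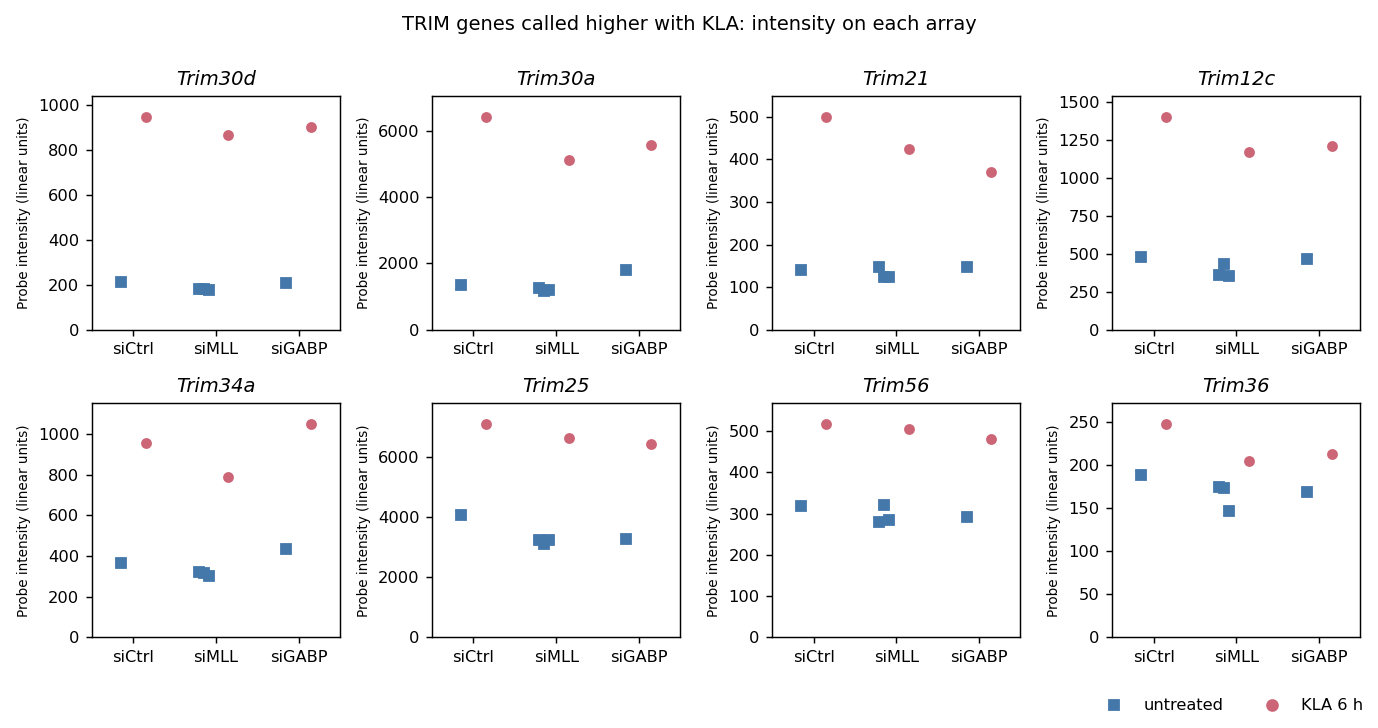
Probe intensity on each of the 8 arrays for the 8 TRIM genes called higher with KLA, by siRNA, with untreated arrays as squares and KLA arrays as circles. In every panel the 3 KLA arrays lie above the 5 untreated arrays, with the largest fold change for Trim30d (177.9 to 213.1 against 869.1 to 949.0).

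Trim8 led the genes that fell. Its protein binds SOCS1, an inhibitor of cytokine signalling. Trim8 read 3563.6 with siCtrl, 3813.0, 3625.2 and 3827.4 with siMLL and 4084.7 with siGABP in untreated cells. After KLA it read 1585.2, 1660.1 and 1550.7 with siCtrl, siMLL and siGABP. The KLA arrays were within a narrow band far below all untreated arrays, and Trim8 fell by 1.26 on the log2 scale (SE 0.06, 2.39-fold lower, adjusted p = 9.72e-09). Trim27, also called Ret finger protein, was 1784.6 with siCtrl, 1734.7, 1703.0 and 1812.7 with siMLL and 1488.0 with siGABP without KLA, and 1206.0, 1205.6 and 992.1 with it. The siGABP array was the lowest in each state, and the states did not overlap. Trim27 fell by 0.57 on the log2 scale (SE 0.05, adjusted p = 2.82e-06), and its second probe by 0.32.

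Trim41, a RING ligase of protein kinase C, read 726.4 to 852.1 in untreated and 558.8 to 715.0 in KLA cells, with siGABP highest in both. It fell by 0.38 on the log2 scale (SE 0.06, adjusted p = 0.000145) and by 0.2 on its second probe. Trim36, Trim39 and Trim59 were picked for naming after their values were seen. Trim39, known for stabilising the apoptosis regulator MOAP1, read 459.2 to 507.6 without and 355.4 to 366.1 with KLA, and fell by 0.47 (adjusted p = 2.29e-05). Trim36, a microtubule-associated ligase, read 146.8 to 188.5 without and 205.3 to 247.7 with KLA, and rose by 0.42 (adjusted p = 0.000659). A second Trim36 probe past the filter rose by 0.59, but its states overlapped. It read 204 in siCtrl untreated cells, against 198.4 with siMLL and 202.8 with siGABP after KLA. The dimmest stayed between 116.2 and 131 on all arrays, below the filter, and changed by 0.00. The membrane-anchored Trim59 read 132.7 to 156.8 in untreated and 130.4 to 136.8 in KLA cells. Its states overlapped, and its fall of 0.20 (adjusted p = 0.0373) was lost when any single array other than siMLL untreated replicate 2 was left out, at log2 changes between -0.30 and -0.15 over all alternatives.

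**Figure D3:**
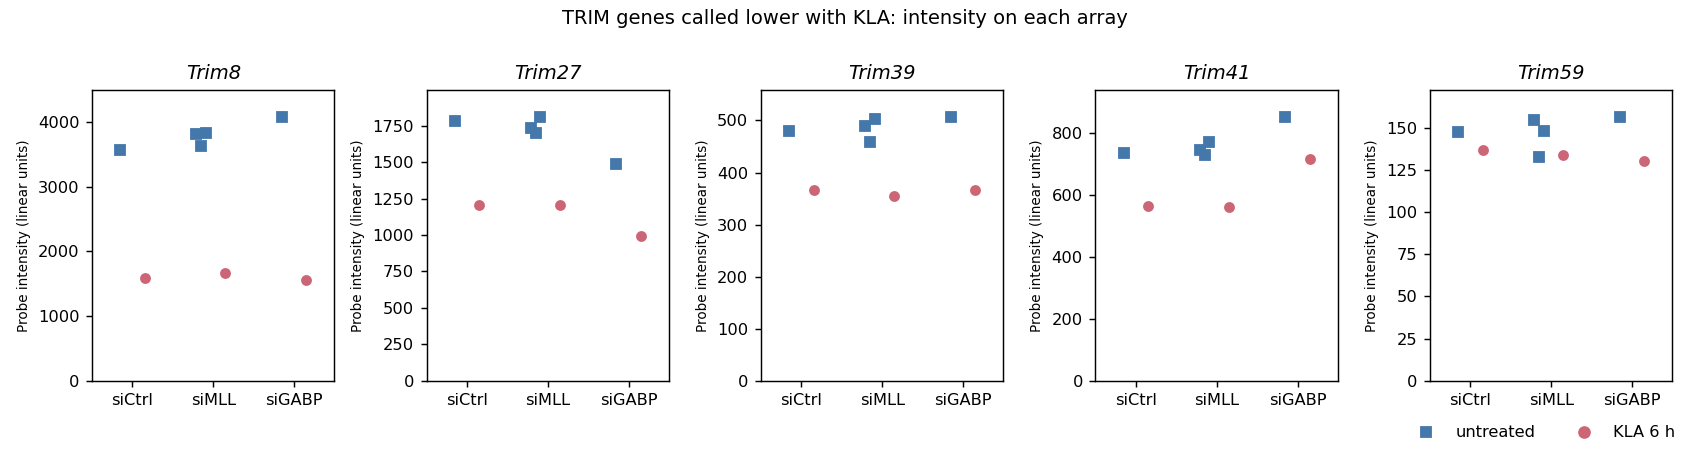
Probe intensity on each of the 8 arrays for the 5 TRIM genes called lower with KLA, by siRNA, with untreated arrays as squares and KLA arrays as circles. Trim8 drops from 3563.6 to 4084.7 untreated to 1550.7 to 1660.1 with KLA, whereas the Trim59 states overlap.

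Other subfamilies moved little. The TIF1 proteins are nuclear cofactors with a PHD finger and a bromodomain. Trim28, the corepressor KAP1, read 1019.3 to 1156.8 in untreated and 960.9 to 1168.1 in KLA cells. Trim33, which acts in the SMAD pathway, read 226.4 to 264.0 and 208.9 to 228.8. The states overlapped in both, their log2 changes were -0.04 and -0.13, and neither was called. The 2 remaining TIF1 members, Trim24 and Trim66, lay below the filter. Neither of the 2 NHL-repeat genes tested, Trim2 and Trim3, was called, and nor was Trim23, with its ARF domain (log2 change 0.18, adjusted p = 0.0603). Of 3 microtubule-associated members with a COS box, only Trim36 was called. On their brightest probes, 4 of the 13 members in no subfamily list fell (Trim8, Trim27, Trim39 and Trim41) and none rose. Among all genes tested, 36.8% were lower and 20.0% higher.

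Members below the filter were read from a fit without it, over 15946 genes. There 17 of 52 TRIM genes were called, 10 higher and 7 lower, against 31.0% of all genes (11.0% higher and 20.0% lower). Trim30b, the remaining Trim30 paralogue on the array, rose from 103.6 to 113.8 in untreated cells to 191.0 to 219.6 with KLA (log2 1.15 ± 0.07 SE, adjusted p = 1.5e-08). Its other probes changed by 0.57 and 0.46. Trim14, an adaptor at the mitochondrial protein MAVS, read 108.0 to 122.2 without and 140.0 to 157.2 with KLA, and rose by 0.50 (adjusted p = 2.12e-05). Trim45, Trim62 and Trim68 fell by 0.46, 0.29 and 0.22, although the second Trim45 probe changed by -0.08 and was not called. The other 16 members below the filter changed by at most 0.15 in either direction and were not called.

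The genes with the largest rise all lie on chromosome 7. In the fit without a filter, 6 of the 12 chromosome 7 members were higher with KLA and 1 was lower, compared with 4 higher and 6 lower among 40 members elsewhere. Among all genes in that fit, 11.0% were higher and 20.0% lower. The chromosome was singled out by the genes with the largest rise, so this contrast was favoured in advance. It also counts close paralogues, whose probes may share targets, as separate members. All 6 members that rose at least 2-fold were on this chromosome. Over the whole array, 2.67% of genes rose as much. In the RefSeq order, Trim6, Trim34a, Trim12a, Trim12c, Trim30b, Trim30a and Trim30d lie in one stretch. It spans positions 1418 to 1428 among the protein-coding genes of the chromosome. The stretch also holds Trim5, Trim34b and Trim30c, which have no value here. It is interrupted between Trim12c (1423) and Trim30b (1425) by a gene without a Trim symbol. Trim21 lies apart from this stretch, at position 1319, and Trim3 at 1475. Trim6, at the edge of the stretch, had a log2 change of 0.00. The Trim12a probe stayed between 94.2 and 109.6 on all arrays, below the filter, where a response of the gene may not be seen.

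**Figure D4:**
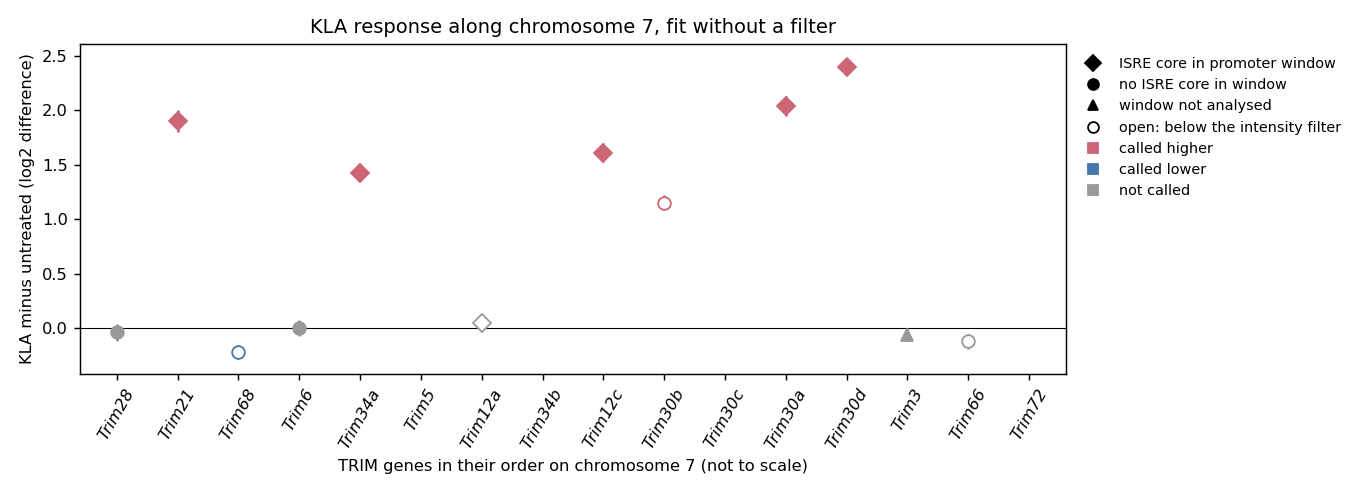
KLA response (log2 difference with standard error) of the 12 chromosome 7 TRIM genes on the array, in gene order and without an intensity filter. Trim21, Trim34a, Trim12c, Trim30b, Trim30a and Trim30d are higher with KLA, and the probes of Trim6 and Trim12a are near 0. Names without a symbol are RefSeq genes with no value here.

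Because these members rose together, their promoters were searched for the interferon-stimulated response element (ISRE), the sequence that interferon-activated STAT and IRF complexes bind. RefSeq windows (GRCm38.p6) of 300 bases, from 250 before to 50 after each start site, were used for 40 of the 52 members. The core searched was GAAA, any 2 bases and GAAA again, on either strand. It was found in 7 of these 40 genes (17.5%) and in 3.99% of all 27025 genes with a window. The 7 were Trim2, Trim12a, Trim12c, Trim21, Trim30a, Trim30d and Trim34a. Of the 6 that passed the filter, 5 were the same 5 genes that rose at least 2-fold, although Trim21 is among the 6 only through its KLA values. The remaining one, Trim2, an NHL-repeat ligase best known from neurons, had a log2 change of 0.01. Trim25, Trim56 and Trim30b rose with no core in their windows. The promoters are not independent of each other, since Trim30a and Trim30d share an identical run of 118 bases and Trim12a and Trim12c one of 71. The 50 bases on each side of the start are shown for all 7 genes, to set them side by side, with the core in capitals (as TTTC, any 2 bases and TTTC where it lies on the other strand). Trim30a has matches at 2 start sites and both are shown.
Trim30d, chr7:104507800-104507899, minus strand: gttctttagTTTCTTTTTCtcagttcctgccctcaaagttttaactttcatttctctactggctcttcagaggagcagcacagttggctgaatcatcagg
Trim30a, chr7:104465144-104465243, minus strand: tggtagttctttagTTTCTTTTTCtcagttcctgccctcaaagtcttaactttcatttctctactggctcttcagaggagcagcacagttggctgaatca
Trim30a, chr7:104446076-104446175, minus strand: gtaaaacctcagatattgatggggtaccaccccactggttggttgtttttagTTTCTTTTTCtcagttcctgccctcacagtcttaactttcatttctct
Trim21, chr7:102565433-102565532, minus strand: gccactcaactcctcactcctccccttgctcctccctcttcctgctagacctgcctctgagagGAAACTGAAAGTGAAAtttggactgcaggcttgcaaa
Trim12c, chr7:104353300-104353399, minus strand: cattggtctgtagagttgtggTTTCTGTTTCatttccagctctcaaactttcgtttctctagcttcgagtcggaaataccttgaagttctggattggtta
Trim34a, chr7:104244407-104244506, plus strand: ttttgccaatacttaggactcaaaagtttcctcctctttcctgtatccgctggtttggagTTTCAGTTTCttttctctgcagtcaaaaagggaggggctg
Trim12a, chr7:104315446-104315545, minus strand: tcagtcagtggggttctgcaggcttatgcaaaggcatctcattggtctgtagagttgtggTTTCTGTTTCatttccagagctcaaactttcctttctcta
Trim2, chr3:84212789-84212888, minus strand: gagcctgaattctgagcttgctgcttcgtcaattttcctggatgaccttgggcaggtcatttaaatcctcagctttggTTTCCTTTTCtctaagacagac

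Only Trim21 held a double match, in which 2 cores overlap, beginning 14 and 20 bases after the start. The core began 41 bases before the Trim30d start, 29 before that of Trim12c and 11 after that of Trim34a. In Trim12a it began 11 bases after the start, within the run of bases shared with Trim12c. The Trim2 match lay at 1 of its 5 start sites. Other motifs, searched on either strand, had shares among members close to those among all genes. The GAS motif TTCNNNGAA, bound by STAT dimers, was in 4 of 40 members (9.55% of genes), and the ETS core CCGGAAG, the class of site GABP binds, was also in 4 (9.93%), namely Trim39, Trim41, Trim44 and Trim46. TATAAA was in 6 (15.7%). A match describes the letters in these windows and says nothing of binding.

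The siRNA comparisons asked how MLL and GABP bear on these genes. They share the same siCtrl arrays, so their values are not independent. Differences are given on the log2 scale. With siMLL, 2 of 31 TRIM genes were called, both lower, against 6.94% of all genes (2.67% lower). For Trim34a, whose values are given above, the siMLL arrays were the lowest in each state, and it fell by 0.27 (SE 0.07, adjusted p = 0.035). Trim69, a testis-associated ligase, read 153.3 with siCtrl, 129.2, 131.4 and 132.6 with siMLL and 141.8 with siGABP in untreated cells, and 149.2, 136.5 and 145.1 after KLA. All 4 siMLL arrays thus lay below both siCtrl arrays, and Trim69 fell by 0.24 (SE 0.06, adjusted p = 0.0459). This call was kept in 2 of 12 alternatives. A second Trim69 probe, below the filter, differed by -0.09, and its siMLL and siCtrl arrays overlapped. Trim69 passed the filter only with the KLA arrays. Just outside the threshold were Trim12c (-0.34, adjusted p = 0.0589), Trim30d (-0.24, adjusted p = 0.0653) and Trim25 (-0.24, adjusted p = 0.0677). All 7 antiviral members that passed the filter and rose with KLA were lower with siMLL than with siCtrl, both untreated and after KLA, on a single siCtrl array in each state. Trim30b, below the filter, shared this direction, at -0.04 untreated and -0.24 after KLA. The remaining members of the list did not. Trim14, which lay below the filter, was higher with siMLL by 0.21 untreated and 0.14 after KLA, and Trim6 by 0.08 and 0.12. Trim65 differed by 0.17 untreated and -0.29 after KLA, and Trim12a, below the filter, by 0.22 and -0.11. Averaged over both states, the siMLL difference was below 0 in 21 of 31 TRIM genes (67.7%) and in 51.1% of all genes. The share of all genes lower in each of the 2 states is not given here, so the count of 7 cannot be set against it. Those 7 were chosen by their KLA call and include close paralogues. The calls were fragile. No TRIM gene was called without siMLL untreated replicate 1 or 3, without either siCtrl array or without the siMLL KLA array. Without either siGABP array, 1 was called. Trim69 was not among the genes tested without a siCtrl or a siGABP array, so its absence there is not a lost call.

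In untreated cells alone, where 3 siMLL arrays met 1 siCtrl array, limma called 0 of 31 TRIM genes, compared with 1.89% of all genes, and 5 had an unadjusted p below 0.05, compared with 17.0% of all genes. Without siMLL untreated replicate 2, 1 was called, Trim12c (adjusted p = 0.0365). Trim25 was the nearest to a call with all arrays, at 3188 ± 67.3 (SD, n = 3) with siMLL and 4042.4 with siCtrl (log2 difference -0.35 ± 0.08 SE, adjusted p = 0.0779). Trim30d stood at 180.4 ± 2.15 (SD, n = 3) with siMLL and 213.1 with siCtrl (-0.29 ± 0.08 SE, adjusted p = 0.118).

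With siGABP, 5 of 31 TRIM genes were called, 3 higher and 2 lower, against 11.3% of all genes (5.81% higher and 5.47% lower). Trim3, an NHL-repeat ligase, read 177.7 with siCtrl, 184.3, 179.2 and 188.8 with siMLL and 232.5 with siGABP in untreated cells. With KLA it read 179.2, 169.4 and 231.1. Both siGABP arrays lay apart above all 6 others, and Trim3 was 1.37-fold higher (log2 0.45 ± 0.08 SE, adjusted p = 0.00469). Trim35, which is tied to interferon signalling, read 161.1 with siCtrl, 168.8, 186.6 and 164.6 with siMLL and 198.0 with siGABP in untreated cells, and 145.7, 183.4 and 231.5 after KLA. The siGABP array was the highest in each state, with siMLL in between, and Trim35 was 1.51-fold higher than with siCtrl (log2 0.59 ± 0.11 SE, adjusted p = 0.00698). Trim41 was 1.23-fold higher (0.29 ± 0.08 SE, adjusted p = 0.0343).

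Trim27 fell by 0.28 (SE 0.07, adjusted p = 0.0325), whereas its second probe differed by -0.08. Trim11, a RING ligase, read 394.5 with siCtrl, 387.0, 374.9 and 357.8 with siMLL and 336.0 with siGABP in untreated cells, and 439.3, 385.1 and 361.9 with KLA. It was lowest with siGABP in each state and fell by 0.28 (SE 0.08, adjusted p = 0.0389). Likewise, the Trim41 difference was -0.01 on its second probe. The brightest Trim36 probe was not called with either siRNA (-0.27 with siMLL and -0.23 with siGABP). A dimmer Trim36 probe differed by -0.64 with siMLL and -0.59 with siGABP, and both differences passed the threshold without a filter (adjusted p = 0.000621 and 0.00193). Single arrays decided much here. The count was 0 without the siGABP KLA array, where Trim3 (adjusted p = 0.0632) and Trim35 were also lost, and 1 without the siCtrl KLA array. It was 2 without siMLL untreated replicate 1 or 3, and 3 without either the siCtrl untreated or the siGABP untreated array.

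**Figure D5:**
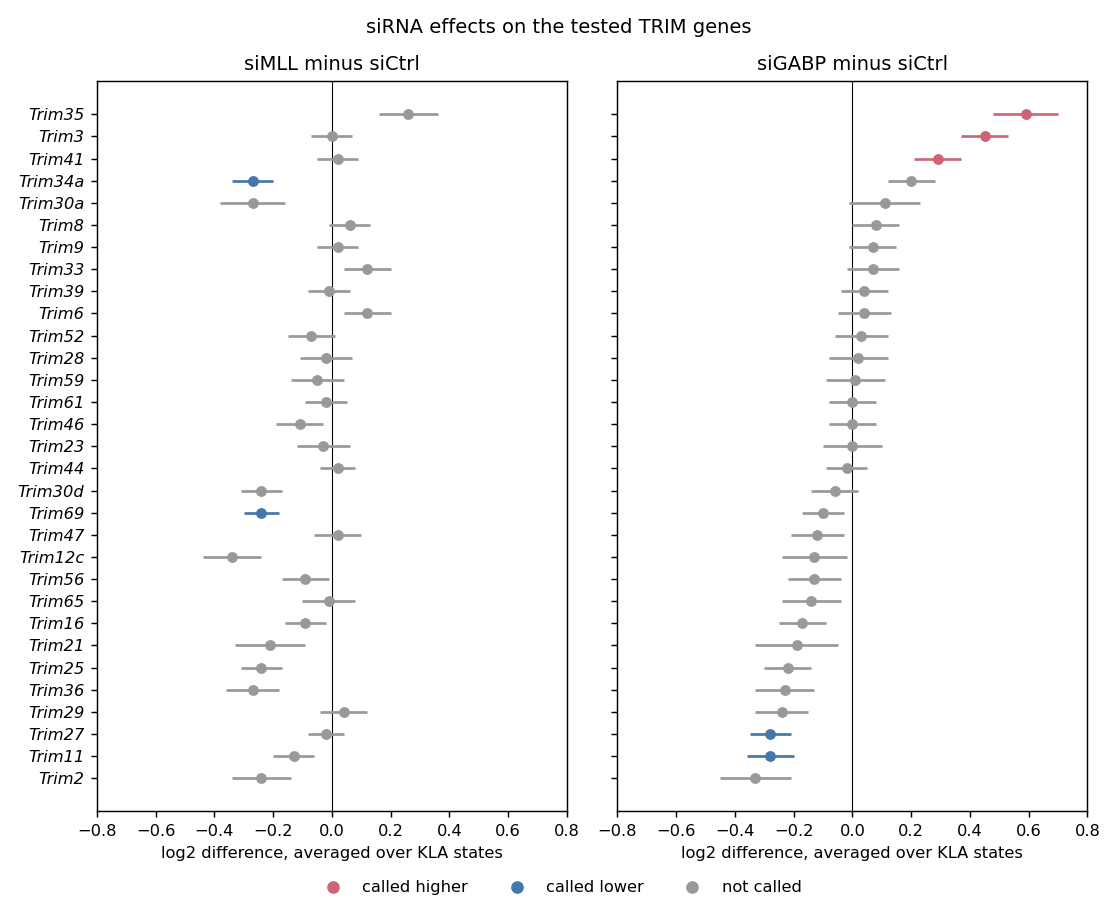
Difference between siMLL and siCtrl (left) and between siGABP and siCtrl (right) for the 31 TRIM genes tested, as log2 differences with standard errors over both KLA states. Trim34a and Trim69 are called lower with siMLL. Trim35, Trim3 and Trim41 are called higher and Trim27 and Trim11 lower with siGABP.

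No siRNA effect on the KLA response of a TRIM gene was called. For both siRNAs, limma called 0 of 31 members, against 0.0114% of all genes, and 3 members of each had an unadjusted p below 0.05 (7.28% of all genes for siMLL and 8.50% for siGABP). Each of these differences rests on single KLA arrays. For siGABP the 3 were Trim30a (-0.63 ± 0.14 SE, adjusted p = 0.35), Trim21 (-0.56 ± 0.23 SE, adjusted p = 0.588) and Trim35 (0.45 ± 0.18 SE, adjusted p = 0.569). The Trim30a response was 2.28 on the log2 scale with siCtrl, 2.12 with siMLL and 1.66 with siGABP, the last from the highest untreated value. For siMLL they were Trim28, Trim65 and Trim2, at -0.45, -0.46 and -0.46.

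Proteins built like TRIMs but named otherwise, and the proteins TRIMs act on, were read from the same fit, as log2 changes. Of 3 such TRIM-motif genes tested, Mefv, which encodes pyrin, rose by 2.41 and Pml, which forms nuclear bodies, by 1.97, and Mid1, a microtubule-bound ligase, was not called (0.13). Pml read 1124.4 in siCtrl and 899.2 to 934.4 in siMLL untreated cells, and 4586.4 and 3468.8 after KLA. It was lower in siMLL cells in both states and fell by 0.35 (adjusted p = 0.0106). Of 14 partners and substrates in innate signalling, 9 rose and 4 fell with KLA, with a median of 0.26 against -0.04 for all genes tested. Of all genes tested, 20.0% rose and 36.8% fell. The RNA sensors Ifih1 (MDA5) and Ddx58 (RIG-I, the substrate of Trim25) rose by 2.54 and 2.5, and Rnf135, another RIG-I ligase, by 1.58. Untreated values of Ifih1 (125.2 to 145.9) and Mefv (133.5 to 137.8) lay near the median of all probes (139.5). Both may have passed the filter through their KLA values, and would then add nothing to the counts of rising genes. Tab2, the target of Trim30a, rose by 1.11 while its partner Tab1 fell by 0.81. The adaptor Mavs fell by 0.54 and Irf3 by 0.36, and Sting1 was not called (0.01). With siGABP, Irf7 and Ddx58 were higher by 0.70 and 0.50 (adjusted p = 0.00322 and 0.0417) and Irf3 fell by 0.33 (adjusted p = 0.0236).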

How the data were processed

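The authors deposited Illumina probe intensities from 8 arrays, made with BeadStudio 1.5.1.3 per the submitters' processing notes. Sorted values were identical on all arrays (68.5 to 62999), so the deposited intensities were already quantile normalized. They were corrected with normexp (offset 50), quantile normalized, log2 transformed and fitted with limma 3.58.1 in R 4.3.3. Probes with 1 gene symbol and a mean log2 value above 6.73 were kept, and each gene was represented by its brightest probe. The KLA, siMLL and siGABP effects came from an additive model (4 residual degrees of freedom), while the untreated siMLL comparison and siRNA effects on the KLA response came from a model with a mean per group (2 degrees), in which lone arrays are assumed to vary like the siMLL triplicate. Tests were two-sided, with Benjamini-Hochberg adjustment over 8793 genes and calls at 0.05. The scripts were tested on simulated data. The number of arrays limits the precision.

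Named genes were members called for KLA with an absolute log2 change of at least 0.5, members called for an siRNA comparison, and all antiviral and TIF1 members past the filter. Other names were chosen after their values were seen. The members and lists were chosen with earlier results of these data known. A further table held 16 per-sample columns whose names match no label, and these were not used. Alternatives changed the offset, background correction, filter, variance trend, model, probe choice and symbols, averaged the triplicate or left out single arrays.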

Additional observations from a re-analysis of the deposited data

How the results depend on the processing

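For KLA, between 12 and 16 TRIM genes were called when single arrays were left out, 10 (of 14 tested) with a filter at the 75th percentile and 17 (of 52) with no filter. The share of all genes called also moved with the filter, at 56.8% with the median filter and 31.0% with none. The share at the 75th percentile is not given here, so 10 of 14 cannot be set against it. A filter on untreated arrays alone, chosen after seeing the data, gave 14, of which 7 rose and 7 fell. The siMLL count moved from 2 to 1 with an offset of 16 or with every probe tested, to 0 with no filter, with the triplicate averaged or with 1 mean per group, and to 4 with the filter at the 75th percentile. The siGABP count moved from 5 to 2 with an offset of 16, no filter or the triplicate averaged, and to 3 at the 75th percentile. The siMLL count in untreated cells moved from 0 to 1 with no background correction, at the 75th percentile or with an intensity trend. Leaving out single arrays gave 0 to 2 for siMLL, 0 to 5 for siGABP, 0 to 1 for siMLL in untreated cells and 13 to 17 for members with no overlap between KLA and untreated arrays (13 with all arrays). Both siRNA effects on the KLA response gave 0 throughout, in fits that called at most 3 genes in all, so this count says nothing of stability. Over the values of single genes named by the rule and 3 others, none reversed, 56 lost a call, 12 gained one and 1586 kept their side of the threshold. The cause was not tested. The 1586 include values not called with the main settings, so this total does not measure how stable the calls are. Trim3 kept its siGABP call in 15 of 16 alternatives and Trim35 in 14 of 16. Trim41 kept its siGABP call in 9 of 17, and Trim11 and Trim27 each in 8 of 17. The siMLL call was kept in 8 of 17 for Trim34a and in 2 of 12 for Trim69. Probes near the median of the array (139.5) have the least signal over background. No paired analysis was possible because only the siMLL untreated group carries replicate numbers.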

Other observations

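Trim25 is known in humans also as a ligase for ISG15, a ubiquitin-like protein induced by interferon. Of the ISG15 conjugation genes, 4 passed the filter and all 4 rose with KLA, beside 20.0% of all genes tested, with a median log2 change of 2.61 against -0.04 for all genes tested. Isg15 read 372.7 to 737.0 in untreated and 12797.7 to 17029.2 in KLA cells and rose by 4.9. The isopeptidase Usp18 rose by 3.03, the activating enzyme Uba7 by 2.19 and the conjugating enzyme Ube2l6 by 1.95. With siGABP, Ube2l6 was higher by 0.54 (adjusted p = 0.00506), and the other 3 were not called. With siMLL the differences of these genes ran from -0.3 to -0.07, with adjusted p between 0.154 and 0.67.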
